A study of Mus musculus with 201 samples.

Results

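The enzymes that add acetyl groups to lysines of histones and other proteins, remove them, or remove methyl groups from them were examined in single nuclei and whole cells of mouse dentate granule cells (DGCs), the principal neurons of the dentate gyrus in the hippocampus. Members were the gene symbols of the Hdac, Sirt, Kdm and Kat families that carry only a number or a number and a letter, leaving out *Kdm5c*, *Kdm5d* and *Kdm6a*. There were 40 of them, 11 Hdac, 7 Sirt, 15 Kdm and 7 Kat genes, among the 42609 symbols that the 3 expression tables share. RNA was measured by full-length amplification and sequencing, without strand information and without molecular identifiers. In nuclei, 8.82% of members met the rule for a call as higher and 8.82% as lower, beside 8.07% and 10.5% of all genes. In whole cells the shares were 2.7% each, beside 5.86% and 4.84%. RNA of the demethylase gene *Kdm6b* was 11-fold higher in nuclei sorted as positive for FOS protein than in those sorted as negative. The acetyltransferase gene *Kat2a*, the demethylase gene *Kdm4a* and the deacetylase gene *Hdac7* were 24.8-fold, 11.1-fold and 9.83-fold lower. These 3 were detected in 2, 3 and 9 FOS-positive nuclei, and in 10, 14 and 16 FOS-negative ones. The ratios of *Kat2a* and *Hdac7* each turned in 1 of the 4 amplification conditions.

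Acetylation of histone tails by lysine acetyltransferases (Kat) is associated with open, transcribed chromatin, and histone deacetylases (Hdac) and the NAD-dependent sirtuins (Sirt) reverse it. Lysine demethylases (Kdm) remove methyl marks, by an oxidation that uses flavin in the LSD enzymes and by an iron-dependent reaction in the much larger JmjC family. In neurons, class IIa deacetylases are known to move between nucleus and cytoplasm with activity, and deacetylases have been studied widely in memory formation in the hippocampus.

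Nuclei labelled Prox1+/Fos+ (FOS+, 48 nuclei) and Prox1+/Fos- (FOS-, 48 nuclei) came from 1 C57BL/6 mouse, 8 weeks old, that spent 15 min in an unfamiliar enclosure (NE) and 1 h back in its home cage. Nuclei labelled NeuN+/Prox1+ (23 nuclei) came from 1 home-cage (HC) C57BL/6 mouse and were amplified on another platform. Whole cells were GFP+ cells of the Prox1-GFP strain, in which the *Prox1* promoter drives the fluorescent protein, taken 1 h after an injection of PTZ at 50 mg per kg, which blocks GABA(A) receptors and causes seizures (35 cells), or of saline (47 cells). They were dissociated with papain, and per the methods the hippocampi of 2 mice were pooled per treatment, while the series description speaks of a single mouse. After the limits on total count and genes detected, 40 FOS+ nuclei, 41 FOS- nuclei, 30 PTZ cells and 38 saline cells remained, and all 23 HC nuclei were used.

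The labels name no animal behind a cell, so each group counted as 1 sample. No test of a difference was made, and every difference below describes these libraries. Levels are expected counts summed over a group and given as counts per 1000000 (CPM). A member was detected in a cell at more than 1 transcript per 1000000 (TPM). Intervals are 95% intervals, Poisson for CPM and binomial for shares of cells, both exact, and cover counting error only. A gene was called higher or lower when its summed CPM differed at least 2-fold and its share of cells differed in the same direction by at least 10 percentage points, among genes detected in at least 10 of the cells compared.

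Median total counts per library were 269061 in FOS+ and 214421 in FOS- nuclei, 1090755 in PTZ cells, 975934 in saline cells and 165926 in HC nuclei. *Prox1*, which defines DGCs, was detected in 82.5% of FOS+ nuclei, 82.9% of FOS- nuclei, all whole cells and 14 of 23 HC nuclei. The immediate early gene *Arc* was detected in 31 of 40 FOS+ nuclei and 1 of 41 FOS- nuclei. In whole cells, *Fos* RNA was detected in 86.7% of PTZ cells and 78.9% of saline cells. At least 3 of 7 oligodendrocyte-lineage markers were detected in 15 FOS+ and 9 FOS- nuclei, with a summed marker level of 0 to 964 TPM in FOS+ and 0 to 715 TPM in FOS- nuclei and *Olig2* at 0 in both. At least 3 markers of astrocytes, microglia or interneurons were detected in 3 FOS+ nuclei, 3 FOS- nuclei and 1 PTZ cell. In that PTZ cell the 5 astrocyte markers summed to 11989 TPM, against at most 178 TPM in any saline cell.

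A set of 4 PTZ libraries stood apart from all others. Each had 10244 to 12220 genes detected, whereas no other whole cell exceeded 7854. They correlated with each other at 0.879 to 0.916 on the log2(TPM + 1) scale, above the 0.819 of the closest other pair, and they held 32.1% of all PTZ counts. Each also detected 33 to 35 of the 40 members, against a median of 16.5 and a maximum of 28 in the other PTZ cells. Whole-cell calls and the members named with them are therefore given with and without these 4 libraries.

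**Figure D1:**
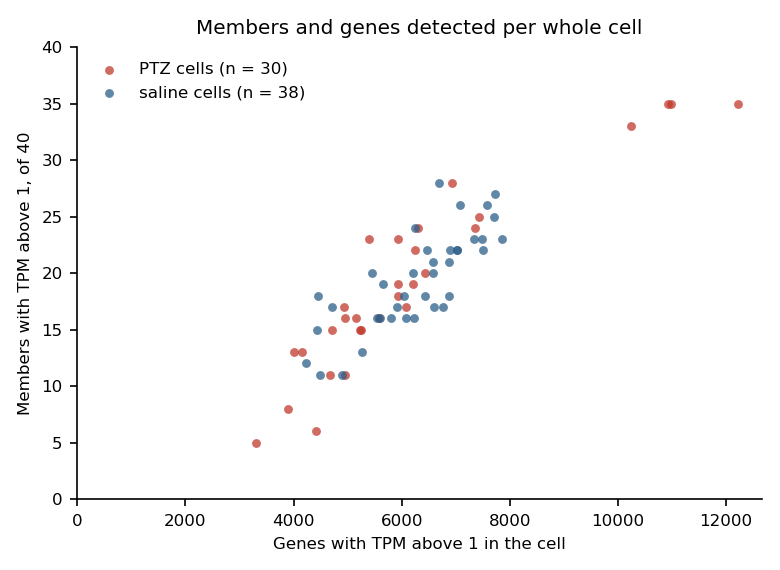
Members detected (of 40, vertical axis) against genes detected (horizontal axis) in each of 30 PTZ cells and 38 saline cells, where detection is a TPM above 1. The 4 PTZ libraries at the upper right, with 33 to 35 members each and over 10000 genes, lie outside the range of the other cells.

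An NE nucleus detected a median of 14.5 members in the FOS+ group (range 6 to 21) and 15 in the FOS- group (7 to 25). The number of enzymes per nucleus was thus close between the groups, and it was 11 against 12 when each nucleus was thinned to 50000 counts. An HC nucleus detected a median of 9 (3 to 13), and of 8 when thinned to 50000 counts. HC libraries were sequenced less deeply, and the reason for the lower number was not tested.

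A core of the family was found in most NE nuclei of both groups. *Kdm5a*, a demethylase of lysine 4 of histone H3, was detected in 40 of 40 FOS+ and 39 of 41 FOS- nuclei. *Kdm2a*, which acts on lysine 36 of histone H3, was detected in 90.0% and 90.2%, and *Kat6b*, the catalytic subunit of a MYST-family acetyltransferase complex, in 85.0% and 87.8%. *Kdm7a*, *Kdm6b* and the sirtuin gene *Sirt1*, described with the comparison, were also detected in most nuclei of both groups. So were *Kdm5b* (70.0% and 75.6%), *Hdac1* (70.0% and 58.5%), *Kat7* (60.0% and 65.9%) and *Sirt2* (60.0% and 56.1%). At the other end, *Kdm4d* was detected in no nucleus, which allows a share of up to 7.5% of FOS+ and 7.32% of FOS- nuclei when 3 nuclei are set as the limit (8.81% and 8.6% by the exact interval), and *Hdac9*, *Kat2b*, *Kat5*, *Kat8* and *Kdm1b* were seen in fewer than 10 of the 81 nuclei and were not compared.

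**Figure D2:**
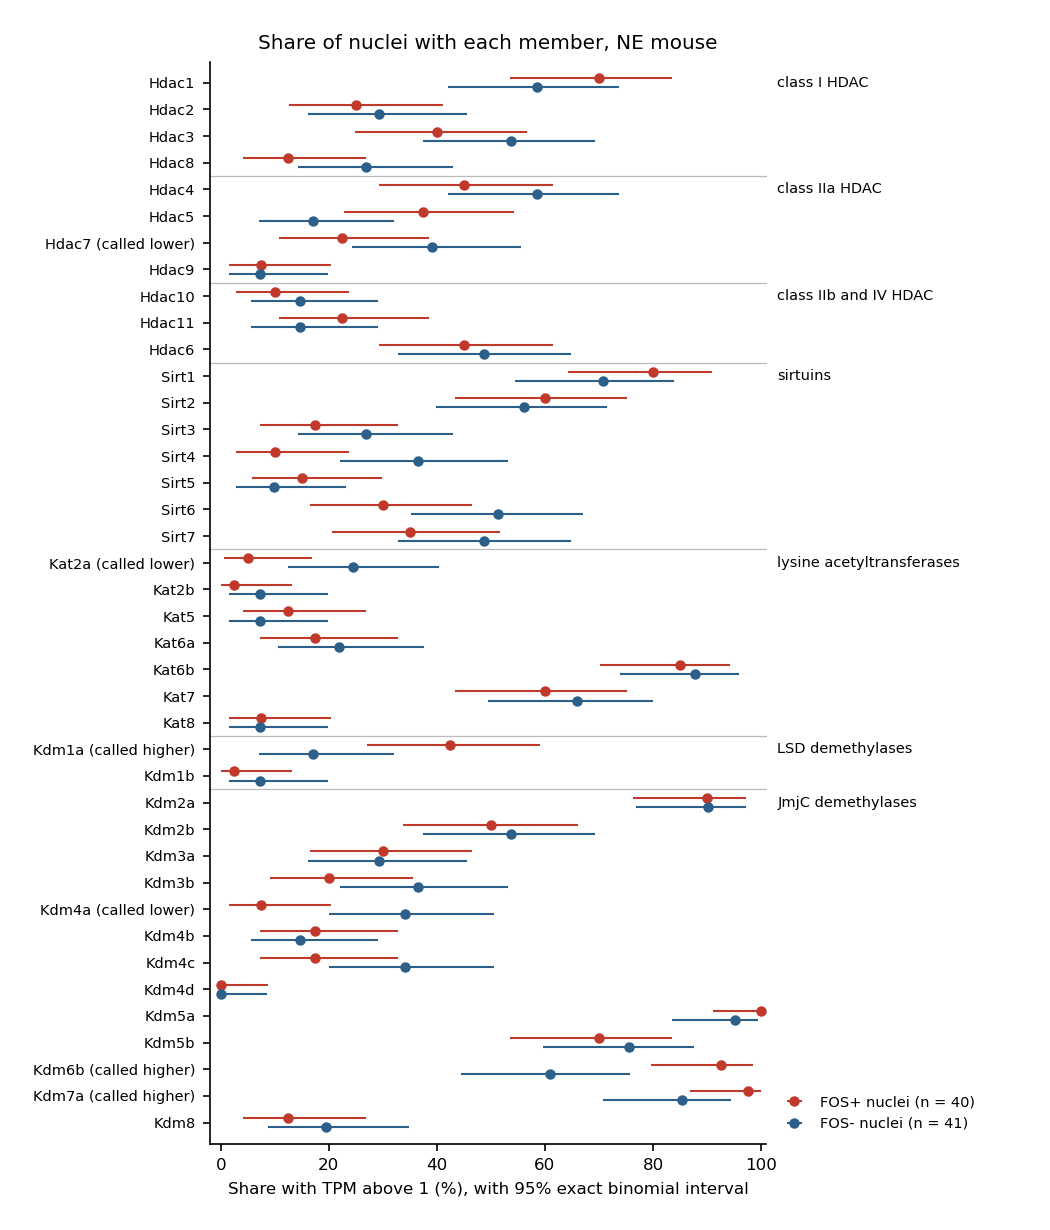
Share of nuclei with a TPM above 1 (horizontal axis, %) for all 40 members, ordered by role, in 40 FOS+ (red) and 41 FOS- (blue) nuclei of the NE mouse, with 95% exact binomial intervals. The intervals of *Kdm6b* (92.5% against 61.0%) lie apart, and those of the other members overlap.

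The comparison of FOS+ with FOS- nuclei asks how nuclei sorted as positive for FOS protein after the experience differ from their neighbours in the same animal. The paper set apart some FOS+ nuclei whose expression clustered with FOS- nuclei, and they are not separated here. Of the 34 members that could be compared, 3 were called higher in FOS+ nuclei, *Kdm6b*, *Kdm7a* and *Kdm1a*, and 3 lower, *Kat2a*, *Kdm4a* and *Hdac7*. Each direction came to 8.82% of the members, beside 8.07% of all 13214 genes compared that were called higher and 10.5% called lower. The members were thus called at shares near those of all genes. The median log2 ratio of the members was -0.08, beside -0.18 for all genes, with 17 members above 0 and 17 below. A TMM factor between the summed libraries moved every log2 ratio in nuclei up by 0.25, so that the median of the members became 0.17, 20 members lay above 0 and 14 below, and *Hdac1*, *Hdac3* and *Sirt4* changed sign. The intervals of the shares lay apart for 1 member, *Kdm6b*, higher in FOS+ nuclei, as for 1.18% of all genes, and for no member in the lower direction, beside 0.598% of all genes.

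*Kdm6b* encodes JMJD3, a JmjC enzyme that removes the repressive methyl marks on lysine 27 of histone H3. Its TPM ran from 0 to 1782 in FOS+ nuclei with a median of 225, and from 0 to 414 in FOS- nuclei with a median of 10.1. Most FOS+ nuclei lay above the FOS- median, and the groups overlapped from 0 up to the FOS- maximum. It was detected in 37 of 40 FOS+ nuclei (92.5%, interval 79.6 to 98.4%) and in 25 of 41 FOS- nuclei (61.0%, 44.5 to 75.8%). Its summed level was 1668 CPM (1647 to 1689) against 151 CPM (145 to 158), a log2 ratio of 3.46. No nucleus held more than 22.9% of the FOS+ counts, and the log2 ratio stayed between 3.17 and 3.68 when any single nucleus was left out. Of all genes compared, 57 had both a ratio and a share difference at least as large. Mean log2(TPM + 1) was 6.66 ± 3.0 (SD, n = 40) in FOS+ and 3.17 ± 2.80 (SD, n = 41) in FOS- nuclei.

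*Kdm6b* (chromosome 11, 69398508 to 69413675, minus strand, GRCm38) overlaps the antisense gene *Kdm6bos* over 286 exonic bases, 4.11% of its exon length. The libraries carry no strand, so reads from the overlap cannot be told apart. *Kdm6bos* itself had 25 summed counts in FOS+ nuclei and 0 in FOS- nuclei, beside 24108 and 2109 for *Kdm6b*. In the HC nuclei, *Kdm6b* was detected in 4 of 23 (17.4%, 4.95 to 38.8%) with a highest TPM of 63.8. These nuclei differ from the NE nuclei in mouse, platform and depth, and the values stand side by side only.

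*Kdm7a* encodes a JmjC enzyme that removes methyl groups from lysines 9 and 27 of histone H3. It was found in nearly all nuclei, 39 of 40 FOS+ (97.5%, 86.8 to 99.9%) and 35 of 41 FOS- (85.4%, 70.8 to 94.4%). Its median TPM was 54.3 (0 to 369) in FOS+ and 12.2 (0 to 236) in FOS- nuclei, and its summed level 493 CPM (482 to 505) against 211 CPM (203 to 218), 2.34-fold higher. The share difference of 12.1 points was close to the limit, and leaving out any single nucleus did not end the call, with a log2 ratio between 1.05 and 1.58. In HC nuclei it was the most widely detected member, in 21 of 23.

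*Kdm1a* encodes LSD1, the flavin-dependent demethylase of lysine 4 of histone H3 and a subunit of deacetylase-containing corepressor complexes. It was detected in 17 of 40 FOS+ (42.5%, 27 to 59.1%) and 7 of 41 FOS- nuclei (17.1%, 7.15 to 32.1%), at 63.7 CPM (59.7 to 68) and 29.4 CPM (26.7 to 32.4), a 2.16-fold difference. The highest TPM was 667 in FOS+ and 388 in FOS- nuclei, and the median was 0 in both, so the difference lay in how many nuclei had the RNA. The ratio was close to the 2-fold limit. It was at a log2 ratio of 0.85 to just under 1 without FOS+ nucleus 5, 12, 29, 41 or 42 or FOS- nucleus 26, each of which ended the call, and at 0.86 without the 24 nuclei that carried oligodendrocyte-lineage markers. A single FOS- nucleus held 65.7% of that group's counts.

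**Figure D3:**
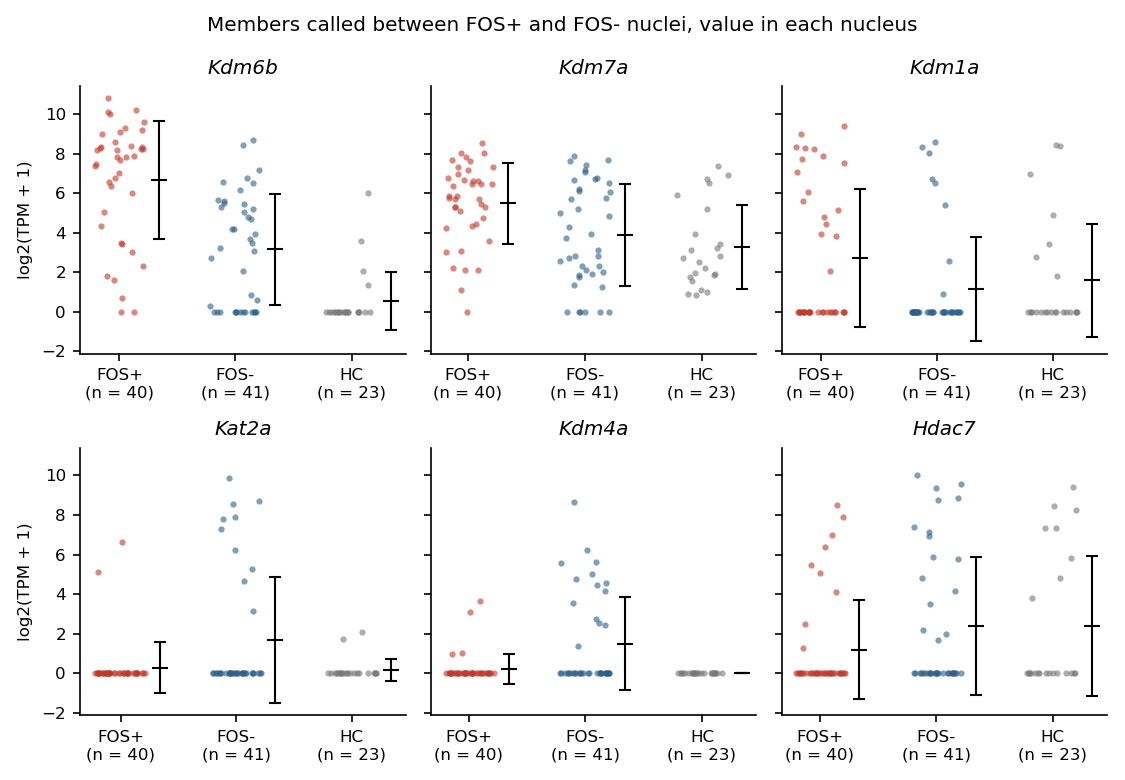
log2(TPM + 1) in each nucleus (points) for the 6 members called between FOS+ and FOS- nuclei, with mean and SD (black), and in the HC nuclei beside them. *Kdm6b* and *Kdm7a* lie above 0 in most FOS+ nuclei, whereas *Kdm1a*, *Kat2a*, *Kdm4a* and *Hdac7* lie at 0 in most nuclei of each group.

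The 3 members called lower were all detected in a minority of FOS- nuclei. *Kat2a* encodes GCN5, the acetyltransferase of the SAGA and ATAC coactivator complexes. It was detected in 2 of 40 FOS+ (5.0%, 0.611 to 16.9%) and 10 of 41 FOS- nuclei (24.4%, 12.4 to 40.3%), with a highest TPM of 97.9 and 936. Summed, it reached 6.85 CPM (5.57 to 8.34) and 170 CPM (163 to 177), and a single FOS- nucleus held 43% of that group's counts. Leaving out any nucleus kept the log2 ratio between -6.06 and -3.88.

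*Kdm4a*, a JmjC demethylase of lysines 9 and 36 of histone H3, was detected in 3 of 40 FOS+ (7.5%, 1.57 to 20.4%) and 14 of 41 FOS- nuclei (34.1%, 20.1 to 50.6%). It was a low-level transcript, at 1.18 CPM (0.685 to 1.88) and 13 CPM (11.2 to 15.1), with a highest TPM of 11.6 in FOS+ and 409 in FOS- nuclei. All 3 FOS+ nuclei that had it lay within the FOS- range. No HC nucleus had it, which with 23 nuclei allows a share of up to 13% by the limit of 3 nuclei (14.8% by the exact interval).

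*Hdac7*, a class IIa deacetylase, was detected in 9 of 40 FOS+ (22.5%, 10.8 to 38.5%) and 16 of 41 FOS- nuclei (39%, 24.2 to 55.5%), at 11.1 CPM (9.48 to 13) and 109 CPM (104 to 115). TPM values spread widely in both groups, up to 358 and 1030. The log2 ratio lay between -3.73 and -2.81 with any nucleus left out. In HC nuclei *Hdac7* was detected in 8 of 23.

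NE nuclei had been amplified under 4 conditions, 1 or 10 µM template-switch oligonucleotide (TSO) crossed with ERCC spike-ins at 1:200 or 1:2000, with 8 to 11 nuclei per sort group in each. *Kdm6b* was called higher in every condition, with 100%, 87.5%, 100% and 81.8% of FOS+ nuclei against 60.0%, 70.0%, 50% and 63.6% of FOS- nuclei. *Kdm1a* had the higher share in FOS+ nuclei in all 4, and *Kdm4a* and *Hdac7* the lower share in all 4. The summed levels were less even, since the log2 ratio of *Kdm1a* was -0.51 at 1 µM and 1:2000 and that of *Hdac7* was 1.79 at 10 µM and 1:200. Of the 34 members, 2 were called higher and 2 lower with the share in the same direction in every condition, 5.88% each, beside 3.17% and 3.28% of all genes. *Kat2a* was lower in 3 conditions and detected in 1 FOS+ and 0 FOS- nuclei in the remaining one, 1 µM TSO with 1:200 ERCC. *Kdm7a* was 50 percentage points higher in FOS+ nuclei in that same condition and 10.0 points higher at 1 µM and 1:2000, equal at 10 µM and 1:200, and 9.09 points lower at 10 µM and 1:2000. Its share in FOS- nuclei was 100% in both 10 µM conditions.

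**Figure D4:**
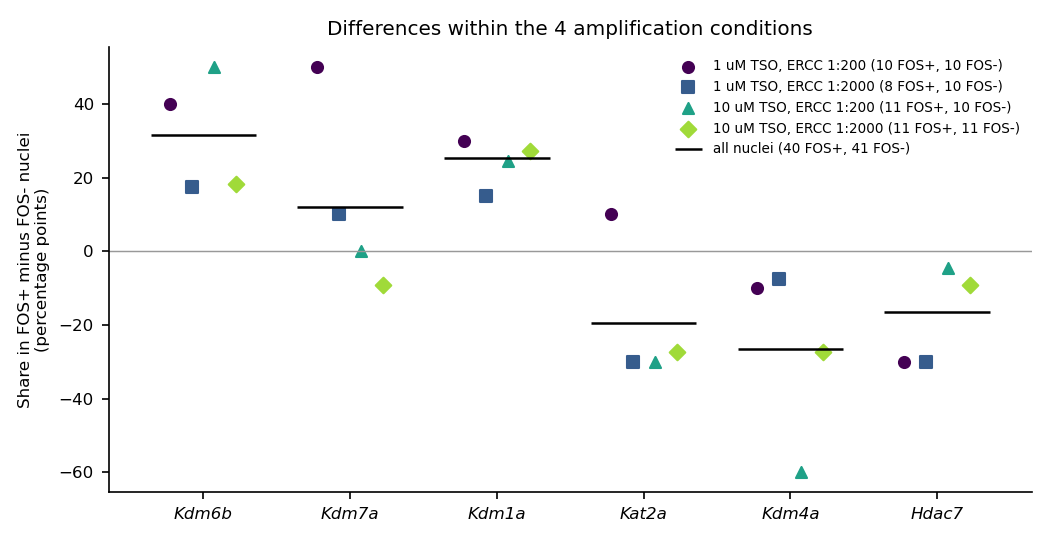
Share of FOS+ minus share of FOS- nuclei (percentage points, vertical axis) for the 6 called members within each of 4 amplification conditions (coloured symbols, 8 to 11 nuclei per group) and over all nuclei (black lines). *Kdm6b* and *Kdm1a* lie above 0 and *Kdm4a* and *Hdac7* below 0 in all 4 conditions, whereas *Kdm7a* and *Kat2a* cross 0.

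Promoter sequence was read from RefSeq (GRCm38.p6), because activity-regulated genes are often bound by CREB, AP-1 and EGR factors. Windows were the 250 bases before an annotated start, and 31 of the 40 members had 1 or more, 47 in all. No window was available for *Kdm6b*, or for *Kdm3b*, a member called in whole cells below, so neither could be read. The letters searched for, on both strands, were TGACGTCA for the cAMP response element (CRE) and its core TGACG, which the longer motif contains, TGANTCA for AP-1 and GCGNGGGCG for EGR. The 3 called members with a match are shown 5′ to 3′ on the gene's strand with the match in capitals, *Kdm7a* at chr6:39206774-39207023, *Kdm4a* at chr4:118180044-118180293 and *Kat2a* at chr11:100712468-100712717, all on the minus strand.
Kdm7a: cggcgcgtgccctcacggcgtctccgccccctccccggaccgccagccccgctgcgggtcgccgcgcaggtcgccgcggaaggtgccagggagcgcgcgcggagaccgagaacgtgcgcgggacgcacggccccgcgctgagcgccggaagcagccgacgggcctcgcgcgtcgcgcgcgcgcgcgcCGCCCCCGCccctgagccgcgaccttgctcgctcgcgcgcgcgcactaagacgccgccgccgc
Kdm4a: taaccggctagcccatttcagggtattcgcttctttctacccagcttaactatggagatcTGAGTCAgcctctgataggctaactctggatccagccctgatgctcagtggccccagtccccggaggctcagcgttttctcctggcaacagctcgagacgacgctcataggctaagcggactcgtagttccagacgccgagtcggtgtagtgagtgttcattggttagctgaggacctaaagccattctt
Kat2a: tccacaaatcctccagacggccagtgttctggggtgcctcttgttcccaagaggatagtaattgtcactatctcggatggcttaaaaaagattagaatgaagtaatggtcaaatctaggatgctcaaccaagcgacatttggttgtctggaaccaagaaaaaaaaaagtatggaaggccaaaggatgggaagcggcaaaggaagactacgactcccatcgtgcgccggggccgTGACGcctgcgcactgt

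*Kdm7a* had the EGR letters 63 bases before its start, read on the opposite strand, *Kdm4a* the AP-1 letters 190 bases before, and *Kat2a* the CRE core 17 bases before. The single window of *Kdm1a* and the 4 windows of *Hdac7* held none of these letters. Among all 47 member windows the full CRE was in 0, beside 1.55% of the 32851 windows of all genes, the CRE core in 17 (36.2%) beside 17.8%, AP-1 in 5 (10.6%) beside 6.75% and EGR in 4 (8.51%) beside 4.70%. A match says only that the letters are there.

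The class I deacetylases were unevenly detected. Of all Hdac genes *Hdac1* was detected in the most nuclei, 52 of 81, whereas *Hdac8* was detected in 16. *Hdac1*, a subunit of the Sin3, NuRD and CoREST complexes, was found in 70.0% of FOS+ and 58.5% of FOS- nuclei at 89.1 and 103.1 CPM. Of its 31-base stretches, 40% also occur in transcripts of other genes, 34.8% in *Gm10093*, so its level depends on how reads were divided. *Hdac2* was at 32.5 CPM in FOS+ and 171 CPM in FOS- nuclei, yet was detected in 25% and 29.3%, so the ratio rested on a few nuclei with high values, of which 1 held 42% of the FOS- counts. No class I member was called.

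In class IIa, *Hdac5* was detected in 37.5% of FOS+ (22.7 to 54.2%) and 17.1% of FOS- nuclei (7.15 to 32.1%), with a 1.89-fold higher summed level, under the 2-fold limit. It was called higher under both alternative scalings, at log2 ratios of 1.17 with TMM factors and 1.11 with the median of ratios, and when any of 6 nuclei was left out, and the log2 ratio was -0.08 without the nuclei carrying oligodendrocyte-lineage markers. *Hdac4* stood at 45% and 58.5%, and 22.4% of its exon length overlaps the antisense transcript *Gm26720*. The class IIb genes *Hdac6*, the tubulin deacetylase, and *Hdac10* had summed log2 ratios of 2.20 and -2.62 with share differences of -3.78 and -4.63 points. In *Hdac10* a single nucleus held 83.9% of the FOS+ counts and another 72.2% of the FOS- counts.

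No sirtuin was called, although *Sirt1*, named after its values were seen, was close. It was at 59.1 CPM in FOS+ and 21.6 CPM in FOS- nuclei, 2.74-fold higher, with a share difference of 9.27 points, and it was called in 37 of the 81 comparisons that left out 1 nucleus. A single nucleus held 53% of its FOS+ counts. Without the 24 nuclei carrying oligodendrocyte-lineage markers, the log2 ratio of *Sirt1* was -0.11. Within the conditions it was -1.62 at 1 µM and 1:2000 and -0.28 at 10 µM and 1:200. It was 3.27 at 1 µM and 1:200 and 2.09 at 10 µM and 1:2000. *Sirt7*, a nucleolar member with the highest mean TPM of the group, was at 92.4 CPM and 35% in FOS+ and at 161 CPM and 48.8% in FOS- nuclei. *Sirt5*, a mitochondrial desuccinylase, had a log2 ratio of 2.35 from 6 FOS+ and 4 FOS- nuclei. Named after their values were seen, the mitochondrial *Sirt4* was detected in 4 of 40 FOS+ and 15 of 41 FOS- nuclei at nearly equal CPM (28.2 and 31.4), and the chromatin-bound *Sirt6* in 12 and 21 nuclei at 24.1 and 44.8 CPM. Neither reached the 2-fold limit.

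Large ratios among acetyltransferases and demethylases also came without a share difference of 10 points. *Kat7*, the MYST enzyme of the HBO1 complex, was at 100.8 CPM in FOS+ and 23.2 CPM in FOS- nuclei with 60.0% and 65.9% of nuclei. *Kdm4b* was at 44.8 and 5.73 CPM with 7 and 6 nuclei, 1 of which held 71.6% of the FOS+ counts. *Kdm8* was at 0.415 and 18.8 CPM with 5 and 8 nuclei, 1 of which held 84.0% of the FOS- counts. In all, 16 members (47.1%) had a summed ratio of at least 2-fold in either direction, beside 41% of all genes, and 10 of them were not called.

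The partners of these enzymes were described by 6 lists of 114 genes, of which 100 could be compared in nuclei, with 9 called higher and 12 lower, close to the 8.07% and 10.5% of all genes. The count of each list is to be read against those shares. Among acetyl-lysine readers, 3 of 19 were higher and 4 lower. The BET protein gene *Brd2* was detected in 60.0% of FOS+ and 22% of FOS- nuclei at 8.17-fold higher CPM, while its relative *Brd3* was 3.16-fold lower (35% and 53.7%). *Baz1a*, a subunit of the ACF and CHRAC remodelling complexes, was detected in 15 FOS+ and 2 FOS- nuclei at 128 and 0.287 CPM. *Mllt3* was 2.34-fold higher, whereas *Bptf*, *Smarca2* and *Yeats2* were 2.53-fold, 4.26-fold and 2.19-fold lower.

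Among subunits of deacetylase and LSD1 corepressor complexes, 3 of 22 were higher and 2 lower. *Rbbp7*, a histone-binding subunit, was detected in 77.5% of FOS+ and 46.3% of FOS- nuclei and was 10.1-fold higher, and *Mbd2*, a reader of methylated DNA in NuRD, in 17 FOS+ and 2 FOS- nuclei at 44.6 and 0.573 CPM. The paralogous scaffolds of the Sin3 complex differed in opposite directions, with *Sin3b* 4.13-fold higher and *Sin3a* 9.93-fold lower. *Phf21a*, a partner of LSD1, was 2.36-fold lower, in 15% and 39% of nuclei, beside the higher *Kdm1a*. Neither of these 2 was called without the 24 nuclei carrying oligodendrocyte-lineage markers.

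Of 24 methyltransferase genes, *Dot1l*, which methylates lysine 79 of histone H3, was 5.65-fold higher (92.5% and 68.3%), and *Setdb1*, *Ehmt1* and *Nsd1* were 4.54-fold, 2.08-fold and 2.08-fold lower. Among other acetyltransferases and their subunits, none of 24 was higher and *Hat1*, *Ing5* and *Kansl3* were 4.43-fold, 3.92-fold and 2.65-fold lower. The coactivators *Crebbp* and *Ep300*, which CREB recruits, had log2 ratios of -0.25 and -0.76 with shares of 92.5% against 87.8% and 62.5% against 63.4%. *Jarid2*, a Polycomb-associated JmjC protein, was 2.76-fold higher, and *Nmnat2*, which makes NAD, 3.23-fold higher.

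Some cell-type marker genes differed between the groups too. The interneuron gene *Gad2* was called higher in FOS+ nuclei (35% and 17.1%) and the DGC gene *C1ql2* lower (45% and 61.0%), while the summed interneuron markers had a median of 26.3 TPM in FOS+ and 1.22 TPM in FOS- nuclei (highest 1360 and 5822 TPM), with *Slc32a1* at 0 in FOS+ nuclei. At least 3 of 5 interneuron markers were detected in 0 FOS+ and 2 FOS- nuclei. At least 3 of 5 DGC markers were detected in 33 of 40 FOS+ and 32 of 41 FOS- nuclei. Without the 6 nuclei with at least 3 markers of astrocytes, microglia or interneurons, *Kdm6b*, *Kdm7a*, *Kat2a*, *Kdm4a* and *Hdac7* were called as before, *Kdm1a* was not, and *Hdac5* and *Sirt1* were called higher and *Kdm3b* lower. Without the 24 nuclei carrying oligodendrocyte-lineage markers, *Kdm6b* and *Kdm7a* were higher, at 13.2-fold and 2.61-fold, and *Kat2a*, *Kdm4a*, *Hdac7*, *Hdac2*, *Kdm3b* and *Sirt7* were lower, the first 2 detected in 0 of the 25 FOS+ nuclei left. Of the 100 partner genes, 10 were higher and 11 lower without the 6 nuclei. *Ing5*, *Kansl3*, *Yeats2*, *Setdb1* and *Ehmt1* were then no longer called. Without the 24 nuclei, 11 were higher and 17 lower. *Phf21a*, *Yeats2*, *Nsd1* and *Nmnat2* were then no longer called, and *Ep300* was called lower. Over all genes, 8.76% were called higher and 10.9% lower without the 6 nuclei, and 7.11% and 14.7% without the 24 nuclei. The part of other cell types in the results was not tested further.

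The comparison of PTZ with saline cells asks what a seizure adds in dissociated whole cells. *Fos* RNA was detected in most cells of both treatments, so saline cells were not a group without it. The paper reports immediate early gene RNA in these whole cells whether or not PTZ was given. The library names end in a different tag for each treatment, and only those of saline cells hold the letters frz. The meaning of the tags is not given, and whatever they mark cannot be told apart from treatment. Of 37 members that could be compared (*Kat2b*, *Kdm4d* and *Kdm8* were too rare), 1 was called higher, *Kdm3b*, and 1 lower, *Hdac7*, which is 2.7% each, beside 5.86% and 4.84% of all 11455 genes. No member had intervals of its shares apart, beside 0.34% of all genes higher and 0.515% lower. Without the 4 PTZ libraries that stood apart, *Kdm3b* was still called higher and *Hdac7*, *Hdac4*, *Kdm4a* and *Kdm7a* lower, beside 3.76% and 9.48% of all genes.

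*Hdac7* was lower in PTZ cells. It was detected in 6 of 30 PTZ (20%, 7.71 to 38.6%) and 15 of 38 saline cells (39.5%, 24 to 56.6%), with a highest TPM of 30.4 and 158 and a median of 0 in both. Its level was 8.71 CPM (7.84 to 9.65) against 28.6 CPM (27 to 30.3), a log2 ratio of -1.72. Without the 4 libraries, 3 of 26 PTZ cells had it and the log2 ratio was -2.38. Leaving out any cell kept the log2 ratio between -2.41 and -1.08. *Hdac7* was thus called lower in FOS+ nuclei and in PTZ cells, as were 10.5% and 4.84% of all genes compared. The share of all genes called lower in both was not counted. *Kdm7a*, called higher in FOS+ nuclei, stood lower in PTZ cells, without a call over all cells.

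*Kdm3b*, a JmjC demethylase of lysine 9 of histone H3, was detected in 11 of 30 PTZ (36.7%, 19.9 to 56.1%) and 6 of 38 saline cells (15.8%, 6.02 to 31.3%), at 21.3 CPM (20 to 22.8) and 10.2 CPM (9.23 to 11.2). TPM reached 53.4 and 44.5. The share difference was 20.9 points over all cells. Without the 4 libraries, 7 of 26 PTZ cells had it (26.9%), with a share difference of 11.1 points, close to the limit, and a 2.16-fold higher level. The call ended without PTZ cell 4, 19 or 33 or saline cell 10, 15, 33 or 39, where the log2 ratio was between 0.71 and just under 1. When every cell was thinned to 50000 counts, the share difference was 7.54 points. In FOS+ nuclei the same gene stood the other way, at 20% against 36.6% of FOS- nuclei and a log2 ratio of -0.96, and the difference between the comparisons was not tested. Of its exon length, 24.6% overlaps *Gm26538* on the other strand.

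*Kdm6b* was not called between the treatments. It was detected in 25 of 30 PTZ (83.3%, 65.3 to 94.4%) and 33 of 38 saline cells (86.8%, 71.9 to 95.6%), with a median TPM of 7.79 (highest 73.5) and 5.07 (highest 52.5) and 43.5 and 33.5 CPM. The log2 ratio was 0.37, with and without the 4 libraries. Most cells of both groups had the RNA.

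*Kdm7a* and *Sirt1* lay just outside the rule. *Kdm7a* was detected in 12 of 30 PTZ (40%, 22.7 to 59.4%) and 24 of 38 saline cells (63.2%, 46 to 78.2%), with a log2 ratio of -0.87 that was -1.59 without the 4 libraries. *Sirt1* was in 15 of 30 PTZ (50%) and 30 of 38 saline cells (78.9%), on only 42 and 83 summed counts, with a log2 ratio of -0.995 (1.99-fold), just under the limit and of -0.88 without the 4 libraries. *Kdm2b*, a demethylase that binds unmethylated CpG islands, was in 60.0% of PTZ (40.6 to 77.3%) and 31.6% of saline cells (17.5 to 48.7%) at a 1.59-fold higher level, with 53.8% without the 4 libraries.

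**Figure D5:**
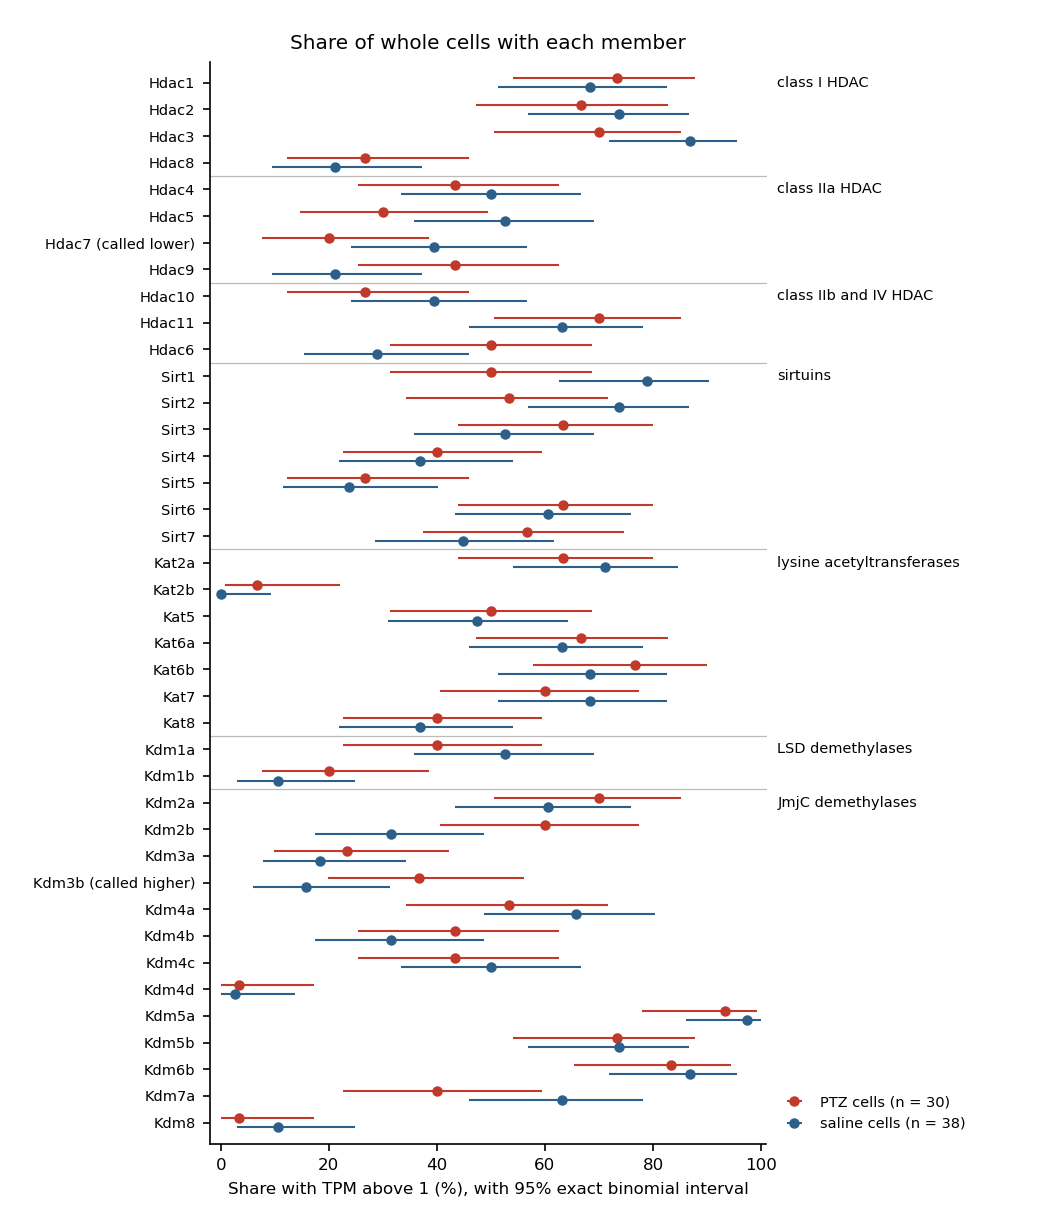
Share of whole cells with a TPM above 1 (horizontal axis, %) for all 40 members, ordered by role, in 30 PTZ (red) and 38 saline (blue) cells, with 95% exact binomial intervals. The intervals of all members overlap, and *Hdac7* (20% against 39.5%) and *Kdm3b* (36.7% against 15.8%) are the 2 members called.

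Among the remaining members with the largest ratios, *Kat8*, the acetyltransferase of lysine 16 of histone H4, was 2.04-fold higher in PTZ cells with nearly equal shares (40% and 36.8%), and *Hdac8* was at 24.9 and 13.4 CPM with 26.7% and 21.1%. Without the 4 libraries their log2 ratios were 1.41 and 1.15, and their shares of PTZ cells, 30.8% and 19.2%, lay below those of saline cells. *Hdac4*, *Kdm1a* and *Kdm4a* had log2 ratios of -0.92, -0.82 and -0.67, and -1.15, -0.62 and -1.24 without the 4 libraries. The highest mean TPM of their groups belonged to *Hdac3*, the deacetylase of the NCoR and SMRT complexes (146 and 156 CPM, 70.0% and 86.8%), *Hdac11* (120 and 95.3 CPM), *Hdac5* (56.4 and 52.5 CPM, 30% and 52.6%), *Sirt2* (76.8 CPM in both, 53.3% and 73.7%), *Kat7* (150 and 116 CPM), *Kdm1a* (15.1 and 26.6 CPM) and *Kdm5a* (90.3 and 111 CPM, 93.3% and 97.4%). Without the 4 libraries the log2 ratios of these 7 members lay between -0.62 and 0.38. The median log2 ratio of the members was 0.10, beside -0.03 for all genes, and 0.11 without the 4 libraries. A 2-fold ratio was reached by 3 members (8.11%), beside 18.8% of all genes, and without the 4 libraries by 7 (18.9%), beside 25.1%.

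Of the 107 partner genes compared in whole cells, 3 were called higher and 5 lower, beside 5.86% and 4.84% of all genes. Without the 4 PTZ libraries, the same 3 were higher and 10 lower, the 5 among them, beside 3.76% and 9.48%. *Rcor2*, a CoREST subunit, was 5.64-fold higher (33.3% and 10.5%), the methyltransferase gene *Smyd3* 2.45-fold higher (63.3% and 31.6%) and *Idh1* 2.22-fold higher. *Setdb2*, the Polycomb subunit *Suz12*, *Ing1*, *Acly*, which makes acetyl-CoA from citrate, and *Epc1* were 5.47-fold, 2.91-fold, 2.50-fold, 2.16-fold and 2.14-fold lower. The astrocyte gene *Aldoc* was also called higher in PTZ cells (33.3% and 7.89%). Without the 1 PTZ cell with astrocyte markers, *Kdm3b* and *Hdac7* were called as before, *Sirt1* was called lower, and *Idh1* was no longer called.

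Among HC nuclei, 8 members were detected in at least 10 of 23, *Kdm7a* (21), *Kdm2a* (20), *Kdm5a* (20), *Sirt1* (18), *Hdac1* (16), *Kat6b* (14), *Kdm5b* (12) and *Kat7* (12). Mean log2(TPM + 1) was 5.51 ± 2.77 (SD, n = 23) for *Kdm5a* and 3.29 ± 2.11 (SD, n = 23) for *Kdm7a*. The same 8 genes were detected in at least 58.5% of the FOS- nuclei of the NE mouse. Of the members, 10 were at 0 in every HC nucleus, *Hdac5*, *Hdac9*, *Hdac10*, *Kat2b*, *Kat5*, *Kdm1b*, *Kdm3b*, *Kdm4a*, *Kdm4d* and *Kdm8*, and the same limits of 13% and 14.8% hold for each.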

How the data were processed

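Whole cells (PTZ, saline) and nuclei (FOS+, FOS-, home cage) were sequenced 1 per library. The authors trimmed reads, aligned them with Bowtie 1.0.0 to mm10 through RSEM, and deposited 2 tables per experiment. The expected counts deposited by the authors were RSEM estimates, not normalized, and were rounded to whole numbers here. The TPM values deposited by the authors were scaled by RSEM for transcript length and library total. Reads of 50 bases (NE nuclei) or 100 bases carried no molecular identifiers, and reads shared between genes were divided by RSEM.

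Libraries with over 50000 counts and with genes detected above the mean minus 2 SD of their table were kept, except that all HC nuclei were used. Summed counts were compared as described with the results (Python 3.11.15, numpy 2.4.6, pandas 2.3.3, scipy 1.17.1), and the scripts were tested on simulated data. A level at or under 3 summed counts was treated as the floor. Since each group counted as 1 sample, no count model was fitted. The TMM factor of edgeR 4.0.16 and the median of ratios of DESeq2 1.42.0 (R 4.3.3) served only as alternative scalings.

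Members, partner lists and markers were chosen with earlier results of these data known. Named members were those called, the 10 largest ratios and the highest mean TPM of each role group; others named were chosen after their values were seen. Alternatives changed the cells kept, weighting, scaling, filter, detection limit, depth, fold and measure, or left out each library in turn. Leaving out libraries or nuclei by gene number or by markers was chosen after seeing the data. Gene positions were read from GENCODE M21 (GRCm38).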

Additional observations from a re-analysis of the deposited data

How the results depend on the processing

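With 1 sample per group, nothing here measures variation between animals. Depth limits the detection of rare members, and home-cage nuclei had the lowest median total count. Thinned to 50000 counts, home-cage nuclei detected a median of 8 members, beside 11 in FOS+ and 12 in FOS- nuclei. No paired analysis was possible because the results come from no test and the well numbers only name samples. In nuclei, 6 members were called. The count was 10 with each nucleus thinned to 50000 counts, 12 at 1.5-fold, 11 by the difference in mean log2(TPM + 1) and 13 with a pseudocount of 0.1. Within single amplification conditions it was 17 (1 µM TSO, ERCC 1:200), 13 (1 µM, 1:2000), 16 (10 µM, 1:200) and 13 (10 µM, 1:2000), on 8 to 11 nuclei per group. The other 12 settings kept it within 1.5 times of 6. These counts, and those of whole cells below, stand without the share of all genes called at the same setting. They do not show whether the members changed more than other genes. Among called members, directions turned in 6 values, all within single conditions. *Kat2a* had a log2 ratio of 2.95 and a share difference of 10 points at 1 µM and 1:200, *Kdm1a* a log2 ratio of -0.51 at 1 µM and 1:2000, *Hdac7* 1.79 and *Kdm7a* -0.11 at 10 µM and 1:200, and *Kdm7a* a share difference of -9.09 points at 10 µM and 1:2000. The cause was not tested, and the groups within a condition are small. Members named but not called turned more often, in 24 of 165 log2 ratios and 15 of 110 share differences in nuclei, 11 and 7 of them outside the single conditions. With any 1 nucleus left out, 5 to 9 members were called. In whole cells, no called member turned, and 15 of 154 log2 ratios and 6 of 84 share differences of uncalled members did. There, 2 members were called. The count was 4 with equal weight per cell, 1 with detection above 0 TPM, 1 when thinned, 8 at 1.5-fold, 1 at 3-fold, 7 by mean log2(TPM + 1), 15 with a pseudocount of 0.1, 5 without the 4 PTZ libraries of over 10000 genes, and 1 to 4 with any 1 cell left out. The median log2 ratio of the members lay between -0.34 and 0.26 in nuclei and between -0.02 and 0.15 in whole cells over all settings run.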
